A study of Mus musculus with 14 samples.

Results

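Muc4, Muc1, Muc13, Muc16 and Muc20 encode transmembrane mucins, and 5 such genes were looked up in array data from the jejunum of 14 mice. They were chosen by name after Muc4 had stood out between the genotypes of this study, so the genotype values of Muc4 are those that led to the choice, and the genotype values of all 5 genes are given as a description without a test. The array holds 1 probe set named for a single gene for Muc4, Muc1, Muc13 and Muc16, 4 of the 5 genes, among 22180 genes with such a probe set. Muc20 shares its probe set with Muc4 and has no value of its own here. Of the 4 measured genes, 3 passed the filter on dim genes that left 18010 genes for testing, and Muc16 lay below it.

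Transmembrane mucins are long glycoproteins anchored in the apical membrane of epithelial cells, with an outer part so densely decorated by O-linked sugars that it stands up as a brush above the cell. They form the glycocalyx that keeps microbes and digestive enzymes off the enterocyte, and their short inner tails can pass signals into the cell. Muc13 and Muc3 are the typical membrane mucins of the small intestinal brush border, whereas the loose mucus above them is built from the secreted mucin Muc2 of goblet cells.

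The mice were 19 to 21 weeks old, were fed freely and were killed at 7 am. In 7 of them LRH-1 was wild type (WT), and the other 7 had LRH-1 K289R, a form in which an arginine replaces a lysine known to accept the protein modifier SUMO. LRH-1, the product of Nr5a2, is a nuclear receptor of the liver, pancreas and gut epithelium, and the comparison asks how jejunal transcripts differ when that site is changed. Each mouse gave 1 array. The labels state no other treatment, and they name no sex, litter or strain background. The series title has the word hepatic, but every sample label names jejunum, and epithelial markers were present, with mean log2 intensities of 12.98 for Vil1 and, for the epithelium list, array means from 12.36 to 12.55. Log2 intensities are used throughout, and levels of different probe sets are not compared with each other. The arrays correlated pairwise with r between 0.984 and 0.993, and with this number of arrays the standard error of a genotype difference was 0.067 at the median. An array of whole tissue cannot tell fewer cells of a type from less RNA per cell.

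The windows around the annotated transcript starts are shown because LRH-1 binds DNA as a single molecule at an extended half-site, and the search asks only whether that run of letters is present. Each window runs from 250 bases before to 50 bases after a start, and the sequences are from RefSeq, build GRCm38.p6, 5′ to 3′ on the strand of the gene. Annotated starts were found for all 5 genes, with 2 for Muc13. The first sequence is the Muc4 window, chr16:32735636-32735935, plus strand. The second is the window of the other Muc13 start, chr16:33794239-33794538, plus strand, with the match in capitals.
Muc4: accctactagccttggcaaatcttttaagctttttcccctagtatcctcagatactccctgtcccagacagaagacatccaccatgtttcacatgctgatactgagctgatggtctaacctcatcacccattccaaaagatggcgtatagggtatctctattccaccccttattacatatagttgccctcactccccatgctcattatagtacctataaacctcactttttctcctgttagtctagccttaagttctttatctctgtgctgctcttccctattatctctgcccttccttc
Muc13: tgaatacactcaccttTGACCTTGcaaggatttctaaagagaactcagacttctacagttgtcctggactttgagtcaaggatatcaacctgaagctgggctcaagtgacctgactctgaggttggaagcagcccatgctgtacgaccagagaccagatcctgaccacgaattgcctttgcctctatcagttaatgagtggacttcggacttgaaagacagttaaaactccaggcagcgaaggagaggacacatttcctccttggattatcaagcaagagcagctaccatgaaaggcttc
The motif searched was CAAGGTCA on both strands. It was found once among the 6 windows of these genes, in this Muc13 window, where the letters TGACCTTG on the plus strand are its reverse complement. Of 32817 windows of the same length, 512 (1.56%) hold the motif. The looser form CAAGGNCA, which includes the first, is in 6.71% of windows and added no match in these genes. A match is a run of letters and not a measured binding site, and the lack of one in the Muc4 window concerns these 300 bases only.

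Muc4, a very large mucin whose outer part can bind the receptor ErbB2, was lower in K289R. Its log2 intensity was 9.67 at the lowest, 9.98 at the median and 10.21 at the highest of the 7 WT arrays. In the 7 K289R arrays it was 9.16, 9.42 and 9.68 in the same order. The genotypes were nearly separate: every K289R array lay below the WT mean, and 6 of 7 lay below the lowest WT array. The one that did not was K289R replicate 3 at 9.68, and the WT array it passed was WT replicate 6 at 9.67. The means were 9.96 ± 0.19 (SD, n = 7) and 9.40 ± 0.18 (SD, n = 7). The difference of -0.57 (SE 0.091, 95% interval -0.76 to -0.38) is a fold of 0.675, or a median intensity of 1012 in WT against 685 in K289R. Of the 18010 genes tested, 30 differed by more than this in either direction, and 8 (0.0444%) passed the limma threshold, 5 of them lower in K289R (0.0278%). Muc4 is 1 of these 5, and since this is the contrast behind its choice, nothing is read from that.

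Muc1, a mucin of many glandular epithelia whose cytoplasmic tail binds beta-catenin, had a dim signal not far above the filter at log2 6.25. It was 6.54, 6.79 and 6.89 at the lowest, median and highest WT array, and 6.62, 6.94 and 7.06 in K289R. The ranges overlapped widely, although 6 of 7 K289R arrays were above the WT mean. The lowest WT value, 6.54 in replicate 2, stood 0.22 below the next. The means were 6.77 ± 0.11 (SD, n = 7) and 6.89 ± 0.16 (SD, n = 7), and the difference of 0.12 (SE 0.072) had a 95% interval of -0.03 to 0.27.

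Muc13, the small mucin of enterocyte and goblet cell surfaces, went from 13.62 through a median of 13.68 to 13.76 in WT, and from 13.61 through 13.72 to 13.80 in K289R. The ranges nearly coincided, with a pooled SD within genotype of 0.056. Its median intensities of 13107 in WT and 13525 in K289R lay near the top of the table, where the highest value is 20050.3, and whether compression of the signal there plays a part in the small spread and difference was not tested. The genotype difference of Muc13 was 0.03 (SE 0.043, 95% interval -0.06 to 0.13).

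Muc16, the source of the antigen CA125 and known from mesothelium and the ocular surface, was below the filter. Its log2 intensity was 5.92, 6.04 and 6.48 in WT and 6.04, 6.12 and 6.34 in K289R at the lowest, median and highest array. These values overlap throughout, with 2 WT arrays above the highest K289R array. In a fit without the filter the difference was 0.01 (SE 0.087, 95% interval -0.17 to 0.20), and at this brightness background may hold it near 0, which was not tested.

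**Figure D1:**
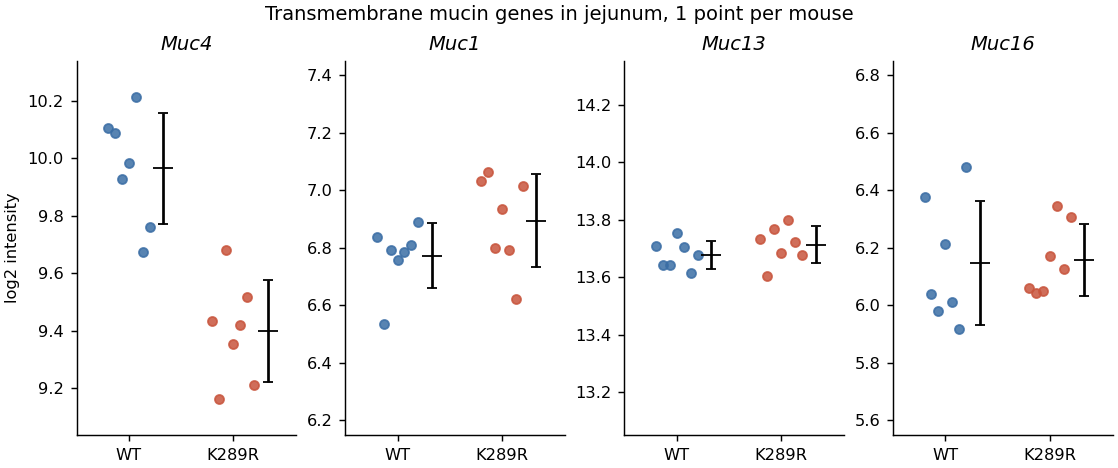
Log2 intensity (vertical axis, the same span in each panel) of the 4 measured transmembrane mucin genes by genotype, 1 point per mouse, with the mean and SD as a bar beside the points. The Muc4 points of K289R lie between 9.16 and 9.68 and those of WT between 9.67 and 10.21, whereas the points of Muc1, Muc13 and Muc16 overlap.

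Among the other membrane mucins and mucin-like proteins none passed limma's test, and the brush border mucins Muc3 and Muc3a differed by 0.0048 and 0.04. Of the 10 listed, 6 were tested, 5 higher and 1 lower in K289R with a median of 0.04, and 0 passed, with 0 at an unadjusted p under 0.05. The background is 0.0444% of genes passing and 8.48% with an unadjusted p under 0.05. Muc3 had WT and K289R means of 13.56 ± 0.13 (SD, n = 7) and 13.56 ± 0.12 (SD, n = 7), and Muc3a, a neighbouring gene of the same kind, differed with an SE of 0.086. The difference for Muc3 had a 95% interval of -0.14 to 0.15, and its intensities lay in the same top range as those of Muc13. Near-identical copies could share probes, and Muc3 and Muc3a are therefore uncertain as separate values. The endothelial sialomucins Podxl (0.28, SE 0.139, adjusted p = 0.604) and Emcn (0.29, SE 0.244) and the endosomal Cd164 (0.03, SE 0.040) were the 3 with the smallest p.

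The secreted mucins did not pass either. All 5 were tested, 1 higher and 4 lower with a median of -0.07, and 0 passed or had an unadjusted p under 0.05. Muc2, the main gel-forming mucin of the intestine, had WT and K289R means of 13.84 ± 0.04 (SD, n = 7) and 13.87 ± 0.05 (SD, n = 7), a difference of 0.03 (SE 0.040, 95% interval -0.05 to 0.11). Like Muc13 it lay near the top of the table, and whether compression of the signal plays a part there was not tested. Muc19 (-0.11, SE 0.054, adjusted p = 0.604), Muc6 of gastric and Brunner's glands (-0.07, SE 0.048) and the airway mucin Muc5b (-0.07, SE 0.070) had the smallest p and were dim.

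**Figure D2:**
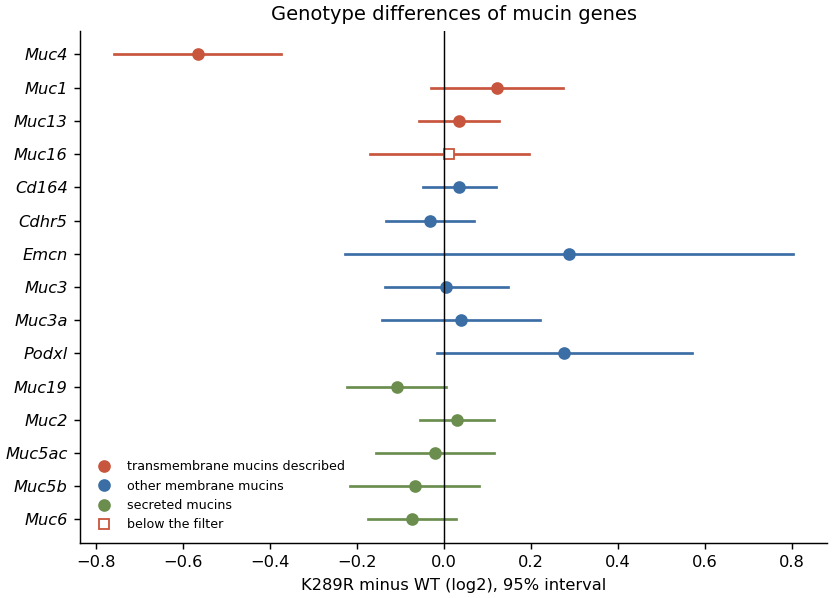
K289R minus WT difference on the log2 scale with its 95% interval (horizontal axis) for each measured mucin gene, coloured by group, with an open square for Muc16, which is below the filter. Muc4 at -0.57 lies apart from the others shown, which run from -0.11 for Muc19 to 0.29 for Emcn.

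Genes that act on or with these mucins were compared next. Over the 7 lists of mucins, enzymes, partners, proteases and regulators, 89 genes were tested, 41 higher and 48 lower, with a median of -0.0034 against -0.0039 for all genes tested. With limma 0 passed, and 8 had an unadjusted p under 0.05, close to the background share.

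Mucin-type glycosylation starts with enzymes of the Galnt family, which put the first sugar on serine or threonine, and goes on with C1galt1, which builds the core structure, and with sialyltransferases. Of 33 tested O-glycan enzymes 19 were higher and 14 lower, with a median of 0.05, and 0 passed, with 5 at an unadjusted p under 0.05. St6galnac1, which caps the first sugar with sialic acid, was at 7.40, 7.64 and 7.94 in WT and at 7.54, 8.14 and 8.36 in K289R at the lowest, median and highest array. Most K289R arrays were high and 1 was low, K289R replicate 5 at 7.54. The difference was 0.46 (SE 0.110, limma adjusted p = 0.200). It passed in 1 of 28 alternative fits, the one without K289R replicate 5 (adjusted p = 0.0208, against up to 0.684 in the others). Galnt7, an enzyme that extends already started sites, differed by 0.20 (SE 0.055, adjusted p = 0.334) and C1galt1 by 0.14 (SE 0.042, adjusted p = 0.336).

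No receptor or partner of the mucins passed the threshold. Erbb2, whose product Muc4 can bind, had WT and K289R means of 10.78 ± 0.12 (SD, n = 7) and 10.73 ± 0.21 (SD, n = 7), and Erbb3 differed by 0.01 (SE 0.096). Of 11 tested ErbB receptors and ligands 6 were higher and 5 lower with a median of 0.00033, 0 passed and 1 had an unadjusted p under 0.05. That one was Egfr (0.22, SE 0.079, adjusted p = 0.436), ahead of its ligand genes Tgfa (-0.17, SE 0.086) and Egf (-0.13, SE 0.067). Of 7 tested binding partners 2 were higher and 5 lower with a median of -0.01, and 0 passed or had an unadjusted p under 0.05. Lgals3, the mucin-binding galectin-3, differed by -0.08 (SE 0.053), the scaffold gene Slc9a3r1 by -0.08 (SE 0.058), and Ezr, which ties the membrane to actin, by -0.03 (SE 0.054). Of 7 tested proteases that shed cell surface proteins 3 were higher and 4 lower with a median of -0.0021, and 0 passed or had an unadjusted p under 0.05. Adam17 differed by 0.09 (SE 0.060), Adam10 by 0.08 (SE 0.055) and Furin by -0.04 (SE 0.071).

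Of 20 tested epithelial transcription factors 5 were higher and 15 lower in K289R with a median of -0.03, and 0 passed, with 2 at an unadjusted p under 0.05. Elf3, an ETS factor of differentiating epithelium, was at 11.68, 11.83 and 11.93 in WT and at 11.15, 11.51 and 11.59 in K289R at the lowest, median and highest array. The genotypes did not overlap, and the share of all genes tested for which this holds is not given here. Elf3 is on chromosome 1, as is Nr5a2, 28 tested genes away. The difference of -0.38 (SE 0.066) had an adjusted p = 0.0507 and passed in 13 of 28 alternative fits, with adjusted p from 0.0122 to 0.210. Rarb, a retinoic acid receptor gene, differed by 0.18 (SE 0.054, adjusted p = 0.385) and the intestinal homeobox gene Cdx1 by -0.19 (SE 0.098, adjusted p = 0.609). The correlation of Elf3 with Muc4 among mice of the same genotype did not pass (Pearson r = -0.18, permutation p = 0.544, adjusted p = 0.731 over 20 factors, Spearman rho = -0.12, permutation p = 0.689, n = 14 arrays, r = 0.35 without the 2 arrays most extreme for Elf3). None of the 20 factors passed in that comparison (lowest adjusted p = 0.285, for Spdef, with 2 at an unadjusted permutation p under 0.05).

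No gene beside Muc4 on chromosome 16 passed the threshold. In the gene table of build GRCm38.p6 Muc4 and Muc20 overlap by 4973 bases at their 3′ ends, on opposite strands, and where the Muc4 probes lie relative to that stretch is not known here. The tested genes on each side are Pcyt1a, Slc51a, Tfrc, Tnk2 and Tnk2os before, and Smbd1, Rubcn, Fyttd1, Lrch3 and Iqcg after. Of these 10 genes 3 were higher and 7 lower, with differences from -0.16 for Slc51a, a subunit of the basolateral bile acid exporter, to 0.11 for Fyttd1. With limma 0 passed (lowest adjusted p = 0.520), and 2 had an unadjusted p under 0.05, Rubcn (-0.13, SE 0.056) and Iqcg (-0.12, SE 0.053). Tfrc, the transferrin receptor, was at -0.0031 (SE 0.140), Tnk2 at -0.07 (SE 0.058), Tnk2os, which is antisense to Tnk2, at 0.02 (SE 0.090), Smbd1 at -0.06 (SE 0.062), Lrch3 at 0.09 (SE 0.049) and the lipid enzyme gene Pcyt1a at -0.13 (SE 0.131). Muc13 lies on the same chromosome, 13 tested genes further on.

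**Figure D3:**
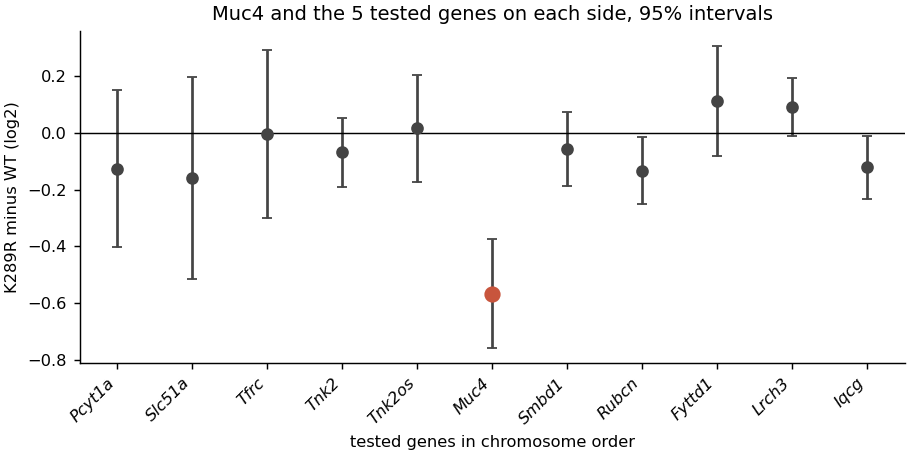
K289R minus WT difference on the log2 scale with its 95% interval (vertical axis) for Muc4, in colour, and the 5 tested genes on each side in chromosome order (horizontal axis). Muc4 is at -0.57 and the 10 others lie between -0.16 and 0.11.

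Mice of the same genotype also differed in Muc4, and this spread was compared with that of the other mucins after the genotype mean had been taken off each value. Muc4 and Muc13 tended to be high in the same mice (Pearson r = 0.64, permutation p = 0.0177, Spearman rho = 0.63, permutation p = 0.0237, n = 14 arrays), and r was 0.53 without the 2 arrays most extreme for Muc4. Within WT r was 0.50 and within K289R it was 0.78. Muc4 and Muc1 went in opposite directions (Pearson r = -0.56, permutation p = 0.0437, Spearman rho = -0.53, permutation p = 0.0497), with r = -0.56 without the 2 extreme arrays, -0.40 within WT and -0.71 within K289R. Over the 6 pairs the adjusted p was 0.106 for Muc4 with Muc13 and 0.131 for Muc4 with Muc1, so 0 pairs passed. The other 4 pairs had r between -0.33 and 0.39. With every array shifted to 1 median, Muc4 with Muc13 passed. In the other 17 alternatives 0 pairs passed. There the lowest adjusted permutation p over the pairs ran from 0.0531 without WT replicate 4 to 0.364 without the 4 arrays of high Fabp6 described below.

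The makeup of the tissue pieces was followed through 14 lists of cell type markers, of which 90 genes were tested. With limma 0 of these genes passed, and 11 had an unadjusted p under 0.05, 6 of them in the smooth muscle list. Over all 18010 genes tested 0.0444% passed and 8.48% had an unadjusted p under 0.05. The 9 smooth muscle genes, among them Acta2 (0.19, SE 0.048) and Myh11 (0.27, SE 0.076), were higher in 7 cases and lower in 2, with a median of 0.23. The 2 lower ones, Mylk (-0.02, SE 0.062) and Lmod1 (-0.0021, SE 0.074), hardly differed between the genotypes. The summed smooth muscle intensity was 18009 to 20131 on WT arrays and 18066 to 24562 on K289R arrays, and 5 of 7 K289R arrays were above the highest WT array in the list mean. Muc4 ran against that mean among mice of 1 genotype (Pearson r = -0.65, permutation p = 0.00929, Spearman rho = -0.70, permutation p = 0.00579, n = 14 arrays), although not past the threshold over 56 relations (adjusted p = 0.173). Without the 2 arrays farthest from the median of the smooth muscle mean r was -0.75, and it was -0.72 in each genotype. K289R replicate 3, with the highest Muc4 of its group, had the lowest smooth muscle mean of all arrays (10.53), and WT replicate 6, with the lowest Muc4 of its group, had the highest among WT (10.73). When the smooth muscle mean entered the fit as a covariate, the Muc4 difference was -0.38 (SE 0.098, 95% interval -0.58 to -0.17), smaller by 1.51 times than without it. How much of the difference goes with the muscle share of the pieces and how much with genotype was not tested.

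The epithelial lists moved less. Of 16 brush border genes 5 were higher and 11 lower with a median of -0.03, of 7 general epithelial genes 5 were higher and 2 lower with a median of 0.04, and of 10 goblet cell genes 7 were higher and 3 lower with a median of 0.04. The summed epithelial intensity was 43115 to 47223 on WT arrays and 44064 to 46045 on K289R arrays. With the epithelium mean as a covariate the Muc4 difference was -0.55, and with the goblet cell mean -0.51. The 7 mesothelial genes, of interest for Muc16, had a median of 0.04, with Msln, whose product binds Muc16, at 0.04 (SE 0.094) and summed intensities of 1417 to 1863 in WT and 1314 to 2074 in K289R. Muc16, itself below the filter, tended to run with the mesothelial mean among mice of 1 genotype (Pearson r = 0.60, permutation p = 0.0128, Spearman rho = 0.60, permutation p = 0.0291, n = 14 arrays). It did not pass (adjusted p = 0.179), and r was 0.40 without the 2 arrays farthest from the median of that mean, 0.49 within WT and 0.88 within K289R. Muc16 ran to a like degree with the brush border mean (Pearson r = 0.56, permutation p = 0.0187, Spearman rho = 0.60, permutation p = 0.0238, n = 14 arrays, adjusted p = 0.188). For the brush border r was 0.52 without the 2 farthest arrays, 0.74 within WT and 0.55 within K289R. The lists of T cells (7 genes), B cells (4 genes), follicle-associated epithelium (4 genes), Paneth cells (5 genes), enteroendocrine cells (5 genes), tuft cells (4 genes), Brunner gland and stomach (4 genes), pancreatic acinar cells (5 genes) and distal small intestine (3 genes) had medians of 0.31, 0.14, 0.04, 0.08, -0.13, -0.01, -0.06, -0.0025 and -0.16. Of the 56 relations between a mucin and a list mean 0 passed, with 7 at an unadjusted permutation p under 0.05. Among the 7 was the T cell list, whose 7 genes were all higher in K289R, with 0 at an unadjusted limma p under 0.05. Its mean ran with Muc4 (r = 0.56, permutation p = 0.0480, 0.26 without the 2 farthest arrays) and against Muc1 (r = -0.63, permutation p = 0.0202, -0.57 without them). The adjusted p was 0.384 for Muc4 and 0.188 for Muc1 (n = 14 arrays). The lowest adjusted p, 0.104, was that of the pancreatic acinar list with Muc4 and with Muc1. Muc4 ran against the acinar mean among mice of 1 genotype (n = 14 arrays as deviations from their genotype mean, Pearson r = -0.79, permutation p = 0.00213, Spearman rho = -0.78, permutation p = 0.00266). Without the 2 arrays farthest from the median of the acinar mean r was -0.76, and it was -0.83 within WT and -0.74 within K289R. Muc1 went the other way (n = 14, r = 0.71, permutation p = 0.00373, rho = 0.68, permutation p = 0.00714), with r at 0.89 without the 2 farthest arrays, 0.51 within WT and 0.93 within K289R. The summed acinar intensity was 812 to 1047 on WT arrays and 924 to 1077 on K289R arrays. Its mean log2 intensity was 7.29 to 7.61 on WT arrays and 7.40 to 7.69 on K289R arrays, around the 7.42 of the median probe set. Whether a signal at this level comes from acinar cells, and what part it has in the mucin values, was not tested.

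**Figure D4:**
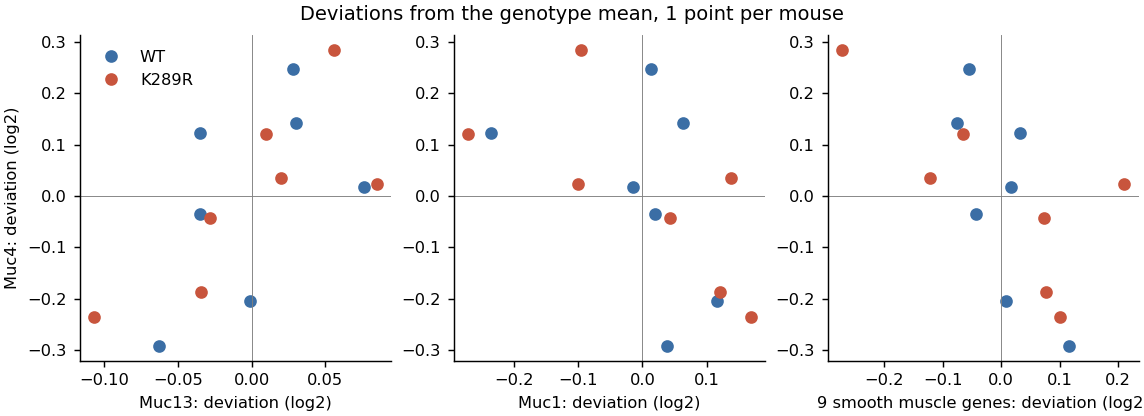
Deviation of Muc4 from its genotype mean (vertical axis, log2) against that of Muc13, Muc1 and the mean of 9 smooth muscle genes (horizontal axes, log2), 1 point per mouse. Muc4 runs up with Muc13 (r = 0.64) and down with Muc1 (r = -0.56) and smooth muscle (r = -0.65), and none of these passed after adjustment.

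Some pieces carried an ileal signal. Fabp6, the bile acid binding protein of ileal enterocytes, was between 9.18 and 12.52 in 2 mice of each genotype (WT 1 and 6, K289R 2 and 7). In the 10 other mice it was between 6.09 and 6.63. Muc4 on those 4 arrays was 10.11 in WT 1, 9.67 in WT 6, 9.16 in K289R 2 and 9.21 in K289R 7. They include the lowest Muc4 value of each genotype, and WT 6 is the array that overlapped with K289R. Without those 4 arrays Muc4 ran from 9.76 to 10.21 in 5 WT arrays and from 9.35 to 9.68 in 5 K289R arrays. The overlap is gone because WT 6 is left out, and nothing is read from that. The difference without them was -0.51 (SE 0.088). With the Fabp6 level as a covariate the Muc4 difference was -0.57. Among mice of 1 genotype Muc4 had Pearson r = -0.27 with the distal small intestine mean, a list that includes Fabp6 (permutation p = 0.391, adjusted p = 0.713, n = 14 arrays). Within WT r was 0.07 and within K289R -0.87, and it was -0.73 without the 2 arrays farthest from the median of that mean.

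The 5 tested genes whose pattern among mice was most like that of Muc4, by Pearson r over 14 arrays after removal of the genotype means, were Amn1 (0.90), Rab8b (0.88), Rbmx2 (0.87), Fam241a (0.87) and Fam118b (0.86). Those most opposed were Cga (-0.91), Amt (-0.89) and Mir146b (-0.88). Cga, with a mean of 6.28 in each genotype, and Mir146b, with 6.60 in WT and 6.48 in K289R, were dim and close to the filter at log2 6.25. They are the extremes of 18009 correlations and are given without a p. Their genotype differences ran from -0.13 for Mir146b (adjusted p = 0.609) to 0.07 for Rbmx2, and 0 passed. Of the genes tested, 3.77% had a larger r to Muc4 in size than Muc13, and 9.32% a larger one than Muc1.

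**Figure D5:**
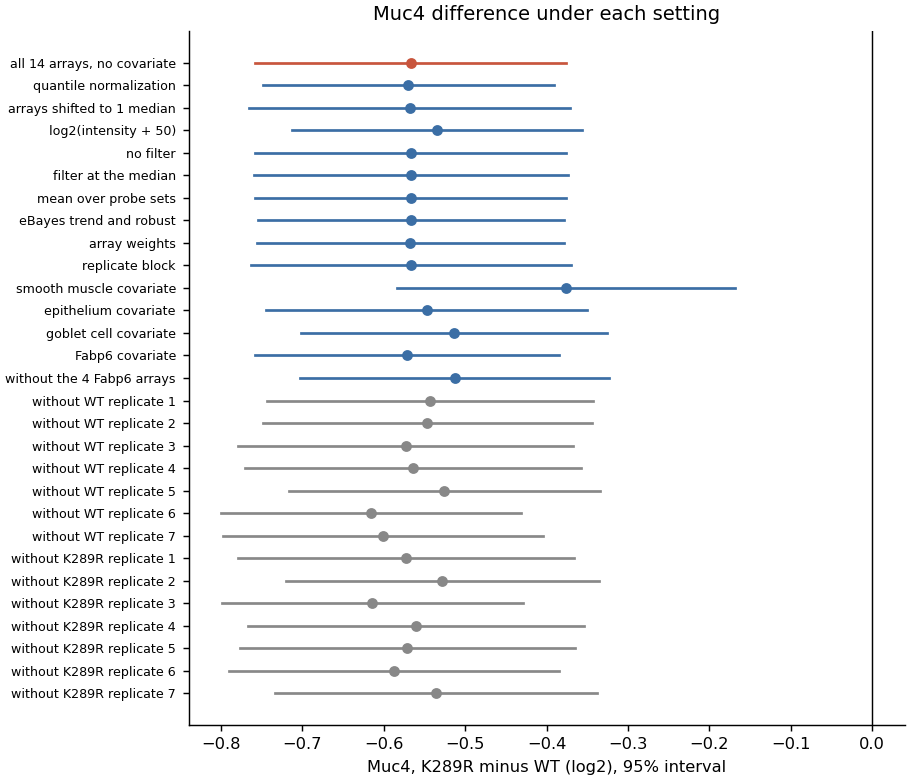
Muc4 difference, K289R minus WT on the log2 scale with its 95% interval (horizontal axis), with all 14 arrays and under each alternative setting (vertical axis), among them leaving out 1 array at a time in grey. All values are below 0 and run from -0.62 to -0.38, with the smooth muscle covariate nearest to 0.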

How the data were processed

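The deposited table gives linear intensities of 41345 probe sets on 14 arrays, with array medians of 168 to 174. Per the submitters' processing notes the authors used Affymetrix Expression Console, with no version, and with summarisation and normalization settings not given in the sources used here. Per the labels' protocols, 100 ng of Trizol-extracted RNA was amplified per sample. Values were log2-transformed and not normalized further. Names come from the platform annotation, in which 23521 probe sets have 1 symbol, 1814 several and 16010 none. A gene is its brightest single-symbol probe set, and genes with a mean under log2 6.25, the 25th percentile of all probe sets, were left out. Differences were fitted with limma 3.58.1 in R 4.3.3 (lmFit, eBayes, 2-sided, no covariate), Benjamini-Hochberg adjusted over 18010 genes, threshold 0.05. Correlations used a 2-sided permutation test within genotype (100000 resamples), adjusted within each family. Both were tested on simulated data.

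The members and lists were chosen with earlier results of these data known. Named are the 5 mucins, list genes past the threshold and otherwise the 3 with the smallest p per mucin-related list. Also named are the genes beside Muc4, the 8 genes of most extreme correlation with it, mesothelial markers and Fabp6. Muc2, Muc3, Muc3a, Erbb2, Erbb3, Acta2, Myh11, Mylk, Lmod1 and Spdef were added after their values were seen. The samples are biological replicates by their titles, and mice were housed 5 per cage, with cages not named. Same-numbered arrays of the genotypes did not deviate together (r from -0.15 to 0.17, 1 of 7 above 0.1), so the numbers were not taken as pairs. Alternatives covered normalization, an offset, filters, probe sets, eBayes options, array weights, the replicate block, covariates and left-out arrays.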

Additional observations from a re-analysis of the deposited data

Results flagged for a closer look

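In 8 of the 88 sets of 7 arrays looked at (44 named genes in each genotype) 1 array stood apart from the rest, where chance flags about 1 in 20 such sets. Among the mucins this was Muc1 in WT, with replicate 2 at 6.54 against 6.76 for the next. Among the genes beside Muc4 it was Slc51a in WT, with replicate 1 at 12.29 against 11.51, and Iqcg in K289R, with replicate 6 at 6.35 against 6.53. Among the mucin-related genes in K289R, replicate 5 was low for St6galnac1 (7.54 against 8.03) and high for Slc9a3r1 (12.56 against 12.39). Replicate 3 was low for Tgfa (7.94 against 8.32) and Cdx1 (9.005 against 9.44) and high for Adam10 (11.12 against 10.98).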

How the results depend on the processing

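The Muc4 difference stayed below 0 in all 28 alternatives. It ran from -0.62 to -0.53 with 1 array left out and was -0.38 with the smooth muscle covariate, where it moved by more than the spread between mice. The differences of Muc1 and Muc13 stayed above 0 in all 28 and that of Muc16 changed sign in 10, and all moved by less than the spread between mice; with 1 array left out they ran from 0.08 to 0.17, from 0.02 to 0.05 and from -0.03 to 0.07. The count of genes past the threshold was 8. It was 14 with array weights, 25 with the goblet cell covariate, 4 with the epithelium covariate, 5 without the 4 Fabp6 arrays, and from 4 to 14 with 1 array left out, namely 4 without WT replicates 3 or 4 or K289R replicate 4, 5 without K289R replicate 7 and 14 without K289R replicate 5. With the replicate block limma called 0 genes (1465 at an unadjusted p under 0.05), and the Muc4 difference in that fit was -0.57 (SE 0.089). No WT array correlated best with its own number. Of the list genes 0 passed in the report's fit. With quantile normalization, arrays shifted to 1 median, log2(intensity + 50), the filter at the median, the mean over probe sets, eBayes with its trend and robust options on, array weights or the smooth muscle covariate 1 passed, Elf3, and with the goblet cell covariate 2, Elf3 and Cd3g. With 1 array left out from 0 to 2 passed: Elf3 without WT replicate 6 or K289R replicates 3, 5 or 6, St6galnac1 without K289R replicate 5, and Sycn without WT replicate 7. Of the genes beside Muc4 0 passed in any of the 28. Of the 6 mucin pairs 1, Muc4 with Muc13, passed with arrays shifted to 1 median and 0 in the other 17 alternatives. The cause was not tested for any of these. Muc1 and Muc16 lie near background, which limits how small a change could be seen in them.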

Other observations

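The array also holds a probe set annotated to both Muc20 and Muc4, whose signal cannot be given to either gene. Its log2 intensity was 7.38, 7.72 and 7.86 at the lowest, median and highest WT array and 7.35, 7.55 and 7.73 in K289R. The ranges overlap, with means of 7.67 ± 0.16 (SD, n = 7) and 7.52 ± 0.14 (SD, n = 7) and a difference of -0.14, which was not tested.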
